A study of Caenorhabditis elegans with 2 samples.

Results

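The 9 genes described here encode GATA factors of the gut and the epidermis of Caenorhabditis elegans. They were set beside the 19973 protein-coding genes of the annotation. The members were chosen by gene name from the peak lists of these libraries, with the elt-2 peak already known, and they fall into 5 intestinal genes (elt-2, elt-4, elt-7, end-1 and end-3) and 4 epidermal genes (elt-1, elt-3, elt-6 and egl-18). The peaks come from chromatin immunoprecipitation sequencing (ChIP-seq) of the protein of Y75B8A.6, which in strain RW12275 carries a TY1, EGFP and 3xFLAG tag inserted by CRISPR on chromosome III (allele st12275). Whole L4 larvae were taken at 48 h, after synchronisation as starved L1 larvae from bleached animals, and the tagged protein was precipitated with an anti-GFP antibody. Both libraries are biological replicates of that 1 group. They share the tag and the strain, whole animals mix all tissues, and no library of animals without the tag or of another stage was analysed here.

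GATA factors are zinc finger proteins that bind DNA around the letters GATA. In the worm embryo, end-1 and end-3 commit the gut precursor to endoderm, and elt-2 and elt-7 then turn on and hold the intestinal programme, elt-2 for the whole life of the animal. In the outer cell layer, elt-1 specifies epidermal fate, elt-3 acts in the main epidermal syncytium, and egl-18 and elt-6 act in the seam cells, the stem-like cells along the flanks. The gene elt-4 encodes a short GATA protein with no established role. It lies 5.28 kb from elt-2, with 1 protein-coding gene between them.

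A peak was assigned to a gene when its summit lay from 2000 bp upstream to 500 bp downstream of any annotated transcript start, or in the gene body. Ranked lists give every candidate peak, also weak ones, and thresholded lists give those past a limit of reproducibility. The larger thresholded list of both libraries together, with 933 peaks, is called the main list. A score of up to 1000 follows the irreproducible discovery rate, a measure of whether a peak keeps its place in a pair of peak sets. The lowest score in every thresholded list was 830. The ranked list behind the main list held 1053 candidates with a score of 830 or more, so that score alone did not make a call. The signal is the strength the authors gave each peak, on a scale that is not stated, and signals are set side by side only within a list. Read totals were not used, so depth per library is unknown and no counting interval is given.

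The elt-2 peak is shown first because it is the 1 thresholded peak of all 9 genes. It covered X:10480671-10480926 (ce11), its summit was 441 bp upstream of the elt-2 start, and the place was intergenic. The sequence is given on the plus strand, the strand of elt-2, with capitals for the GATA-type words searched, which were TGATAA and AGATAA as well as TGATAG and AGATAG, on both strands. None of the matches overlapped.

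elt-2 thresholded peak: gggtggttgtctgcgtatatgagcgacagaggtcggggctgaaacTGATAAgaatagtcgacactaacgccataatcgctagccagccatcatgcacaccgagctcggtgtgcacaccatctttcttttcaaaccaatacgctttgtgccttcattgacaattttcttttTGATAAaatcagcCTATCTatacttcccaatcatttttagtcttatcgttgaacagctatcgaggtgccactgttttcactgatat

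The peak held 3 such words. A TGATAA stood 81 bp before the summit, another TGATAA 44 bp after it, and an AGATAG, read on the minus strand, 57 bp after it. Within 50 bp of the summit there was 1. The candidate of highest signal at end-1 held 2 within 50 bp of its summit, and those of the other members with a candidate held none. Words of this kind were common in sequence of the same length. Within 50 bp of the summit they were present at least once in 15.2% of the main-list peaks, and in 20.9% of all protein-coding genes around the place at the same distance from the start. Over the length of the elt-2 peak, 3 or more words were found in 2.68% of the main-list peaks and 3.58% of the genes. A match of letters does not show that a factor binds there.

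A further feature was noticed after the sequence was seen. The longest perfect inverted repeat within 50 bp of the summit was 22 bp long, with 11 bp in each arm and no spacer, at X:10480763-10480784. Its centre was 25 bp from the summit.

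elt-2 inverted repeat: TGCACACCGAGCTCGGTGTGCA

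No other peak of the main list had one as long. Of 933 peaks, 1 (0.107%) reached 22 bp within 50 bp of the summit, against 123 of 103934 candidates (0.118%) and 30 of 19973 protein-coding genes (0.150%) at the elt-2 distance from the start. The length of 22 bp was taken from the elt-2 peak, which is that 1 peak. The main-list share could thus not be lower, and nothing is read from it beside the other shares. The GC content of the elt-2 peak was 43.4%, beside a main-list median of 42.6%. Within 50 bp of the summit it was 41.6%, below the median of 47.5%, and 29.3% of the peaks were lower.

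Of the intestinal genes, elt-2 alone had a thresholded peak, and no epidermal gene had one. That is 1 of 9 members and 1 of 5 intestinal genes in the main list, where 4.51% of all protein-coding genes had a summit in the same kind of window. With 9 genes, a share of that size corresponds to less than 1 gene, so the count by itself sets neither the family nor the intestinal genes apart. The conservative list, the other thresholded list of the series, held the same elt-2 peak and no other member, with a background of 3.91%. In the thresholded list of either library alone, 0 of 9 members had a summit, where the background was 1.64% in replicate 1 and 1.74% in replicate 2. Since the members were proposed with these peaks known, the counts are a description and were not tested.

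The elt-2 peak was of middling strength. Its signal was 57.2 and its score 1000, and it stood 593rd of 933 by signal in the main list, whose median signal was 61.7. In the conservative list it stood 526th of 798. No other protein-coding gene had this summit in its window. The next nearest start of any annotated gene was that of the noncoding gene C33D3.6, 1437 bp away.

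Both libraries held the elt-2 peak as a candidate below their own threshold. In replicate 1 the signal was 30.8 with a score of 444, at rank 1160 of 75570 by signal, and the summit was 7 bp from that of the main list. In replicate 2 the signal was 30.6 with a score of 678, at rank 721 of 56066, and the summit was 29 bp away. A candidate thus lay at this place in both libraries, among the first 1.54% and 1.29% of the candidates. The call was made only with both libraries together. Such a repeat was usual, since the main list comes from the same libraries. Of the 933 main-list peaks, 924 had an overlapping candidate in replicate 1 and 917 in replicate 2. Of the 1000 candidates nearest to elt-2 by signal in the ranked list behind the main list, 95.3% had one in both libraries. For 52.1% of the main list no overlapping peak was thresholded in a single library, and the same held for 74.0% of the 100 peaks nearest to elt-2 by signal. Among the 578 main-list peaks with the score of elt-2, 1000, the share was lower, 33.2%. Among main-list peaks with a candidate in the library, 62.1% scored at least as high as elt-2 in replicate 1 and 46.0% in replicate 2.

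**Figure D1:**
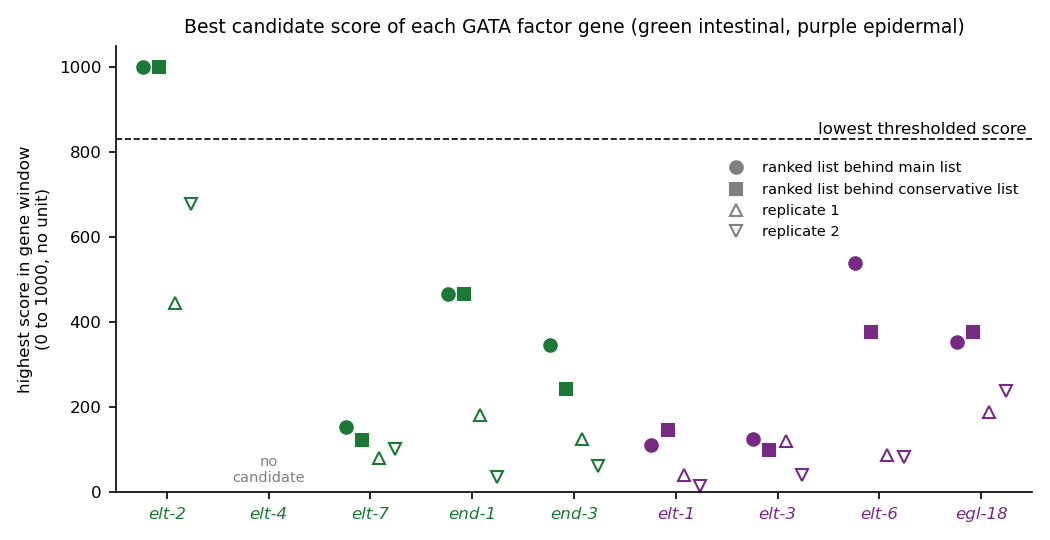
Highest score among the candidates in the window of each gene (vertical axis, 0 to 1000, no unit) in the 4 ranked lists, with green for intestinal and purple for epidermal genes; filled symbols are lists of both libraries, open triangles single libraries, and the dashed line is the lowest thresholded score, 830. Only elt-2 crosses the line, at 1000 in the lists of both libraries, while its replicate values are 444 and 678, and elt-4 has no candidate.

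The candidates below the threshold were numerous and mostly weak. The ranked list from which the main list was drawn, the main ranked list, held 103934 candidates, at a median spacing of 632 bp, and 43.9% of them had the lowest score of 36. At least 1 candidate lay in the window of 88.4% of all protein-coding genes and of 8 of the 9 members, so that the presence of a candidate carries little information. The median best signal of genes with a candidate was 28.2, with quartiles of 22.7 and 34.9. In the shares of genes that reached a given signal below, genes without a candidate count as not reaching it. The 8 members held 70 candidates in all, and their best signals ran from 24.5 at elt-1 to 57.2 at elt-2.

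The endoderm genes end-1 and end-3 came next to elt-2 among the intestinal genes, both at places away from their starts. The best candidate of end-1 had a signal of 40.1 and a score of 466, and its summit was 1930 bp downstream of the start, in the last bases of the gene, annotated as 3′ UTR. In replicate 1 the same place had a signal of 25.3 with a score of 181, and in replicate 2 a signal of 16.3 with a score of 33. The 4 other end-1 candidates, 3 of them upstream of the start, had signals of 8.58 to 13.2 and the lowest score. A signal of 40.1 or more was reached by 12.6% of all protein-coding genes.

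The best candidate of end-3 had a signal of 38.0 and a score of 347. Its summit was 1623 bp upstream of the end-3 start, in a coding exon of the neighbouring gene aip-1. The same place had a signal of 19.7 and a score of 126 in replicate 1, and 12.7 and 61 in replicate 2. Close to the end-3 start, 58 bp upstream, a candidate of signal 20.0 had the lowest score. At end-1 and end-3 alike, replicate 1 gave the higher score at the best place and neither library came near the threshold.

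The gene elt-7, which acts alongside elt-2, had a best signal of 26.8 with a score of 154. That summit was 1700 bp upstream of the first elt-7 start, within an intron of C18G1.9. At this place replicate 1 had a signal of 7.89 with the lowest score of its list, 19, and replicate 2 had a signal of 17.8. Its candidate nearest to the first start, 208 bp upstream, stood at rank 42150 of 103934 by signal. The best signal of elt-7 was reached by 49.8% of all protein-coding genes. It was below the median of 28.2 over genes with a candidate.

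No candidate of any ranked list lay in the window of elt-4. The gene stands at X:10475527-10475959, within a stretch without candidates that reached from 10435802 to the elt-2 summit, 45.0 kb, in the main ranked list. In the list of replicate 1 that stretch was 36.5 kb long and in that of replicate 2 it was 43.7 kb. The main ranked list had 995 stretches of over 10 kb, 17.8% of the genome in total, and 96.2% of the 2311 genes without a candidate lay inside one. Stretches of this kind are far longer than the median spacing, and what produced them was not tested. Rows may be missing from the lists as used here, in which case a gene without a candidate or a call there was not measured, and the shares over all protein-coding genes would be lower limits. Over the 17662 genes with a candidate, the share with a main-list summit was 5.10%. The value of elt-4 is therefore missing and was not read as low signal. Downstream of elt-2 a further stretch of 32.6 kb began at its last candidate in the main ranked list. In replicate 1 the next candidate there came after 0.764 kb, so the stretches are not the same in every list. Of the elt-2 window, 49.0% lay in stretches of over 10 kb in the main ranked list, mostly the part upstream of the peak. For end-1 this share was 17.8% there and 70.9% in replicate 1, and the windows of the members other than elt-2, elt-4 and end-1 lay outside such stretches in all 4 ranked lists.

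**Figure D2:**
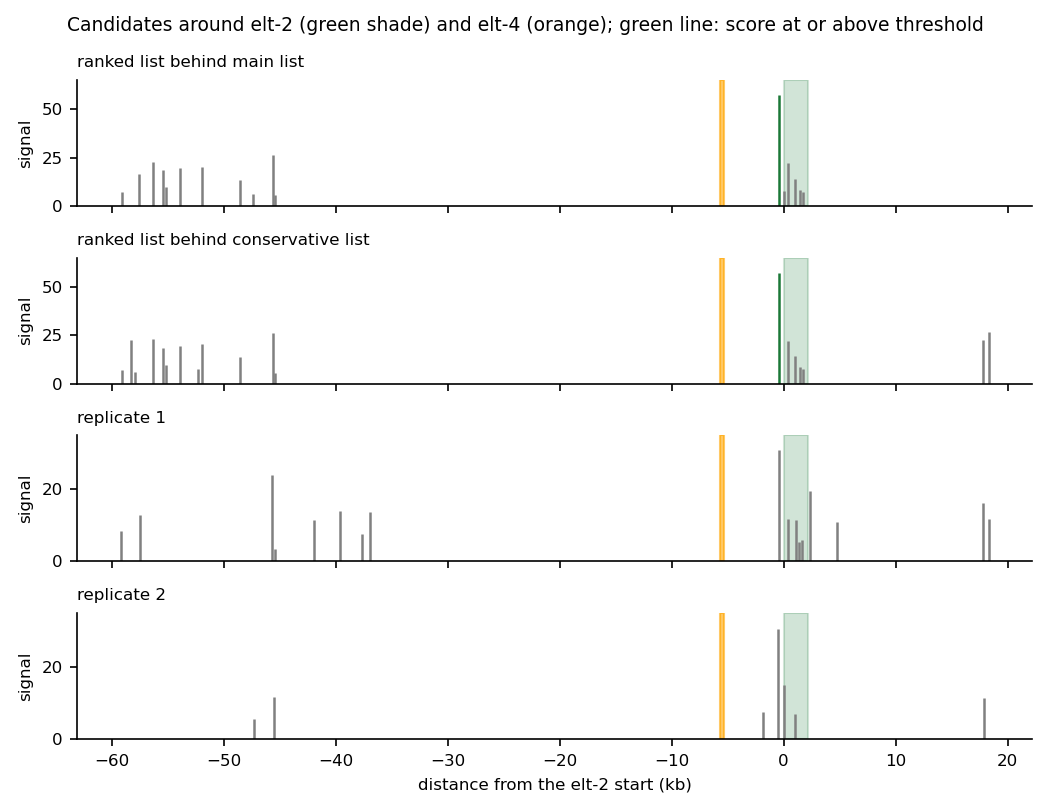
Signal of every candidate (vertical axes, authors' scale, which differs between lists) by distance from the elt-2 start in kb, in the 4 ranked lists; the green band is elt-2, the orange band elt-4, and green lines are candidates with a score of 830 or more. All 4 lists have a candidate just upstream of elt-2, and no list has one at elt-4; before elt-4 only replicate 1 has candidates within the stretch that is empty in the main ranked list.

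Among the epidermal genes, elt-6 had the candidate nearest to the threshold of all members without a call, with a score of 539. Its signal was 39.2 and its summit lay in an elt-6 intron, 2861 bp downstream of the start. In the other ranked list of the series the same candidate, with the same signal, had a score of only 82. In replicate 2 it had a signal of 25.4 and a score of 49, and replicate 1 had no candidate that overlapped it. The sequence at this summit is shown because it held copies of TTAGGC, the telomere repeat of the worm, marked in capitals on the plus strand over IV:1920788-1920888 (ce11).

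elt-6 intron candidate: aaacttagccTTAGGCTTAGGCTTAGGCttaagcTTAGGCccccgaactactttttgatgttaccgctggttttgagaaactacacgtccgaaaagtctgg

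There were 4 copies within 50 bp of the summit, a feature noticed after the sequence was seen. As many on the same strand were found in 0.343% of all candidates and in 0 of the 933 main-list peaks. The share was 0.185% of protein-coding genes at the elt-2 distance from the start. That place is upstream of the start, unlike the intron at elt-6, so the share of genes is not a like comparison. At least 1 copy was present in 3.08% of the candidates and 2.04% of the main-list peaks. How reads from repeated sequence were treated is not given in the sources used here, and a part of that treatment in the elt-6 signal was not tested.

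The genes egl-18 and elt-6 lie in the same direction 136 bp apart, and their windows share candidates. The best candidate of egl-18, with a signal of 32.2 and a score of 353, was at its 3′ end and 263 bp upstream of the elt-6 start. In replicate 1 a candidate that overlapped it, with its summit 98 bp away, had a signal of 20.4 with a score of 40, and in replicate 2 a signal of 16.2 with a score of 54. The window of egl-18, 17.5 kb long, was the longest of the members and held 24 candidates, 1.37 per kb. The median of all genes was 1.15 per kb and their upper quartile 1.47. The windows of elt-6 (1.76), end-3 (1.52) and elt-2 (1.43) were denser than that of egl-18, and those of the other members were less dense. A candidate 248 bp downstream of the first egl-18 start had a signal of 29.5 and a score of 173. Of genes with a window 0.8 to 1.25 times as long as its own, 62.3% reached the best signal of egl-18, against 29.9% of all genes.

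The genes elt-1 and elt-3 had the lower best signals of the epidermal set, that of elt-3 next to that of the intestinal elt-7. The highest score in the elt-1 window was 111 in the main ranked list and 147 in the other ranked list of the series. The best candidate of elt-1 by signal had a signal of 24.5 and a score of 79, in an intron of the gene. In replicate 1 it had a signal of 14.3 with a score of 40, and replicate 2 had no candidate there. The best candidate of elt-3 had a signal of 26.9 and a score of 96 and lay in its 3′ UTR. In replicate 1 it had a signal of 21.8 with a score of 121, and again no candidate of replicate 2 overlapped it. Absence from a library was common at such signals. Of the 1000 candidates nearest in signal, 48.3% for elt-1 and 50.6% for elt-3 had an overlapping candidate in both libraries. The best signal was reached or passed by 59.4% of all protein-coding genes for elt-1 and by 49.5% for elt-3. Among genes with windows of about their length, these shares were 75.8% and 69.6%.

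**Figure D3:**
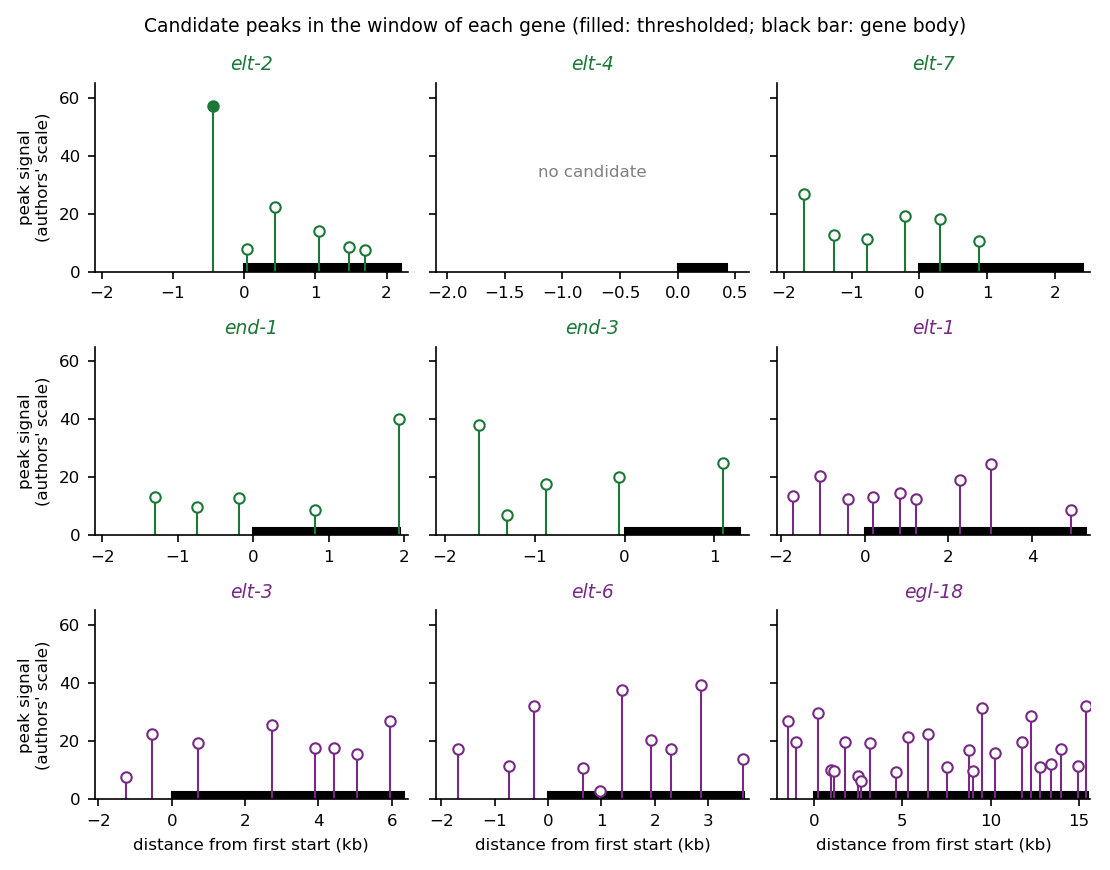
Signal (vertical axes, authors' scale) of every candidate of the main ranked list in the window of each gene, by distance from the first annotated start in kb; the black bar is the gene body and the filled point is thresholded. The elt-2 peak at 57.2 is upstream of its gene, while the best candidates of end-1, elt-1, elt-3, elt-6 and egl-18 lie in the gene body or at its end.

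Set against each other, the intestinal genes had a median best signal of 39.1 over the 4 with a candidate, with a range of 26.8 to 57.2, and the epidermal genes one of 29.5, with a range of 24.5 to 39.2. The ranges overlapped. The order of best signals in the main ranked list was elt-2, end-1, elt-6, end-3, egl-18, elt-3, elt-7 and elt-1, in which both kinds of gene were mixed. Below elt-2 the order differed in the single libraries. In replicate 1 egl-18 and elt-3 stood above elt-6 and end-3, and in replicate 2 elt-6 and elt-7 stood above end-1. The elt-6 value in replicate 1 was that of a candidate in the egl-18 3′ UTR, 165 bp upstream of the elt-6 start. In replicate 1 the median was 22.5 (15.9 to 30.8) for the intestinal and 21.1 (14.3 to 24.8) for the epidermal genes. In replicate 2 it was 17 (15.2 to 30.6) and 15.8 (9.47 to 25.4), and the ranges overlapped in both libraries. The scale differs between lists, so the gaps between the medians are not set against that of the main ranked list. The epidermal windows added up to 38.8 kb and the intestinal windows to 18.4 kb, so the epidermal genes had more sequence in which a candidate could fall. No test was made, since the genes of a set are not replicates and the members were chosen with their peaks known.

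**Figure D4:**
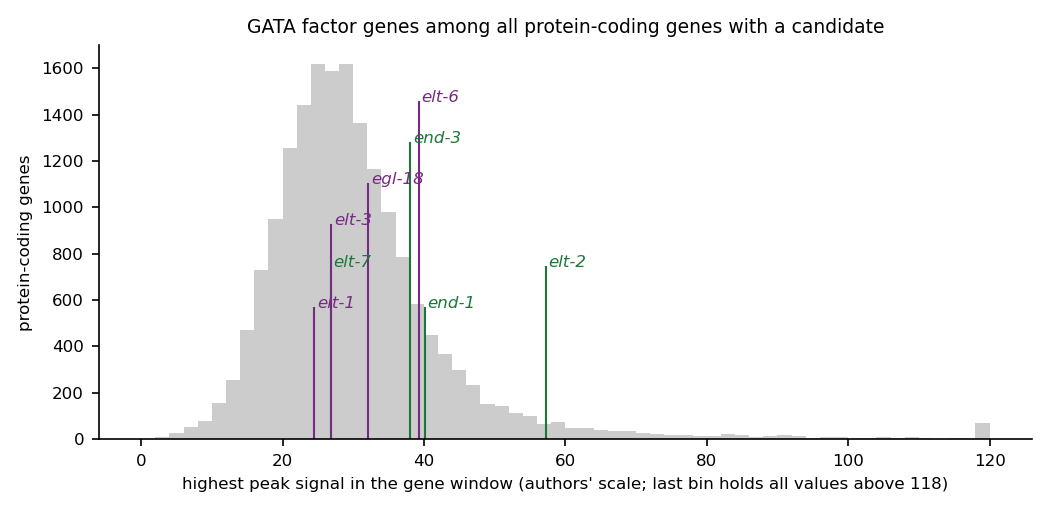
Number of protein-coding genes (vertical axis) by the highest signal in their window (horizontal axis, authors' scale) in the main ranked list, for the 17662 genes with a candidate; green lines are intestinal and purple lines epidermal members. At 57.2 elt-2 stands in the upper tail, end-1, elt-6 and end-3 lie between 38.0 and 40.1, and the other 4 lie between 24.5 and 32.2.

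With the window narrowed to 1000 bp upstream and 300 bp downstream of a start and without the gene body, elt-2 was still the 1 member with a main-list summit, where the background was 2.33%. In that window the best candidates of end-1, end-3 and elt-7 were no longer counted. The best rank of end-1 by signal went from the first 2.80% to the first 67.9% of the list, that of end-3 from 3.59% to 36.5%, and that of elt-7 moved to the first 40.6%. The epidermal genes moved too, elt-6 from 3.12% to 7.76%, egl-18 from 7.76% to 11.2%, elt-3 from 15.8% to 27.8% and elt-1 from 21.8% to 59.5%. In the narrow window elt-6, egl-18 and elt-3 thus ranked ahead of end-3, elt-7 and end-1, so the order of these genes depended on the window. The elt-6 rank there was that of the candidate in the egl-18 3′ UTR, the best candidate of egl-18 in the full window. The rank of elt-2, 0.702%, did not depend on the window. For the other members the nearest main-list summit lay outside the window. It was 5252 bp from an elt-4 start, and that was the elt-2 peak itself. It was 14035 bp from an elt-3 start, 24.2 kb from that of end-3 and over 50 kb from those of elt-7, end-1, egl-18, elt-6 and elt-1.

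The genes around these factors were taken as 4 lists and read against the same background of 4.51%, and no list was set apart by its count. In a list of 11 endoderm specification genes, 1 (9.09%) had a main-list summit, skn-1, which encodes the maternal factor at the head of the endoderm cascade. Its peak had a signal of 59.2 and a score of 949 at IV:5656084-5656339, in an intron, 607 bp upstream of the nearest skn-1 start. The conservative list held 2 skn-1 summits, the thresholded list of replicate 2 held 1 and that of replicate 1 held none. The genes med-1 and med-2, GATA factor genes between skn-1 and the end genes, had no call. For med-1 the best signal was 16.1 with a score of 100, and med-2 lay in a stretch without candidates in all 4 ranked lists.

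Among 15 genes of intestinal differentiation, 1 (6.67%) was called, the ferritin gene ftn-1, whose product stores iron. Its peak had a signal of 47.5 and a score of 839, just above the threshold, at V:7548647-7548902, intergenic and 1196 bp upstream of the start. No other thresholded list held it. The nearest to the threshold without a call was eps-8, which encodes a protein of the intestinal microvilli, with a score of 798.

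None of 12 epidermal regulators and none of 12 epidermal differentiation genes had a main-list summit. At the background of 4.51%, less than 1 call in 12 genes corresponds to the share of all genes. The regulator bro-1, counted as not called, lay in a stretch without candidates in the main ranked list. In these lists the highest scores were 775 at rnt-1, a seam cell regulator of the Runx family, and 731 at rol-6, a cuticle collagen gene. The conservative list did hold a summit in the windows of rnt-1 and of lit-1, a kinase gene of the endoderm list. Over the genes with a candidate, the median best signal was 36.6 for 9 genes of the endoderm list and 34.1 for 15 of intestinal differentiation. It was 30.7 for 11 epidermal regulators and 26.3 for 12 of epidermal differentiation, beside 28.2 over all protein-coding genes with a candidate. A longer window has more places for a high signal, and these medians were not adjusted for window length. The 9 endoderm genes held from 2 candidates at med-1 to 30 at lit-1, beside a median of 5 per gene over all genes. The genes left out, med-2, mom-2 and bro-1, lay wholly in stretches without candidates in the main ranked list, and their values there are missing. In the other ranked list of the series bro-1 had 5 candidates, and in replicate 1 bro-1 had 2 and mom-2 had 6. None of these was thresholded.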

How the data were processed

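ChIP-seq peaks of 2 libraries were used. Sonicated fragments of 200 to 800 bp and assembly ce11 are stated per the labels, while for the aligner and the peak caller no name was given in the sources used here. The authors deposited 4 ranked and 4 thresholded peak lists, with a signal per peak and a score per peak. The deposited −log10 of the global irreproducible discovery rate served to check the score, which it gave to within 1. Ranks were made here from the signal within each list.

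The reference sequence and the Ensembl release 115 annotation are of WBcel235, the assembly also known as ce11. Coordinates are 1-based. All 9 members matched by name. Of the gene lists, all genes matched. The members and lists were chosen with earlier results of these data known. The genes named are the members, genes of the lists with a main-list summit, genes that share or neighbour a member's summit and, chosen after their values were seen, eps-8, rnt-1, rol-6, lit-1, med-1 and med-2. No hypothesis test was made. The assignment of summits to windows was checked on planted summits. Alternatives were other lists, windows and overlaps and the list of either library alone. No table of protein sequences was used. The work used Python 3.11.15, numpy 2.4.6, scipy 1.17.1 and matplotlib 3.10.9.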

Additional observations from a re-analysis of the deposited data

How the results depend on the processing

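The count of 1 member with a thresholded summit, elt-2, held with the conservative list, both other windows, overlap of the peak interval, nearest starts only and, added after the data were seen, only the 8 members with a candidate. It was 0 without replicate 1 and 0 without replicate 2, both over all members and over the intestinal genes. The epidermal count was 0 throughout. The background share of 4.51% was 3.91% with the conservative list, 2.33% with starts extended by 1000 and 300 bp, 3.43% with the 2000 and 500 bp of the rule, both without gene bodies, 4.94% by overlap of the peak interval, 3.26% with nearest starts only, 1.64% and 1.74% with a single library and 5.10% over genes with a candidate (added later). Words of the GATA type at the elt-2 peak numbered 1 within 50 bp of the summit and 3 over the deposited interval, which is longer. The depth of the libraries is unknown, and a candidate below the threshold does not show absence of the protein.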
